A study of Triticum aestivum with 12 samples.

Results

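Genes that were almost silent in leaf before vernalization and abundant afterwards were chosen by their transcript levels in the leaf libraries alone. A gene was a member if it had less than 0.5 TPM in both leaf libraries and more than 50 TPM in both vernalized leaf libraries. TPM is a transcript level corrected for gene length and library size, and it is the scale of every level below. Of 107891 gene identifiers, 53079 met the first condition, 1850 met the second and 50 met both. The leaf values therefore chose the members, and they are given as a description without a test.

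The data were RNA-seq libraries of wheat (Triticum aestivum) cultivar AK58, with 2 libraries in each of 6 groups: vernalized leaf and leaf, vernalized axillary bud and axillary bud, vernalized shoot apex and shoot apex. Plants of the non-vernalized groups were sampled after 2 weeks with 16 h of light at 22 °C and 8 h of dark at 19 °C, whereas plants of the vernalized groups had in addition 1 month at 4 °C and 1 day back in the greenhouse. Cold and later age cannot be told apart, because no group was of the later age without cold. Buds and apices were microdissected. The sources do not say how many plants went into a library, so the spread between 2 libraries may be partly technical. In bulk tissue a lower level can come from fewer cells of a type or from less RNA per cell, which cannot be told apart here, and cell type markers were not analysed here.

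Winter wheat moves to flowering, or flowers earlier, after a long period of cold. In its leaves the MADS-box gene VRN1 is induced during the cold, the repressor VRN2 falls, and the mobile flowering signal VRN3 can then be made. The same cold also induces cold acclimation genes in leaf, among them dehydrins and other protective proteins. Bread wheat carries the sub-genomes A, B and D, so a gene often has a copy in each, and such copies are called homoeologues. Identifiers name the chromosome and are numbered in order along it. None of the 50 identifiers was matched to a gene name or product (0 matches in the reference table), so their roles are not given. None was among the 53 SPL transcription factor genes that the study lists (0 of 53).

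The 50 genes made up 1.86% and 1.82% of all transcripts in the vernalized leaf libraries (18613 and 18198 TPM), against summed levels of 6.36 and 6.62 TPM in the leaf libraries. The levels within vernalized leaf fell into a small very high group and a large moderate one. In 6 members the mean lay between 1138 and 3739 TPM, and the other 44 had means between 53.0 and 232 TPM. The 6 high members carried 75.2% and 78.3% of the summed level. The median of the 50 means was 95.8 TPM in vernalized leaf and 0.0738 TPM in leaf, and 15 members were listed at 0 in both leaf libraries. The vernalized leaf replicates differed by a median ratio of 1.24, with 32 members higher in replicate 1 and 18 in replicate 2. In 4 members the ratio exceeded 2. The widest was TraesCS1B02G304800, with 212 and 66.1 TPM in vernalized leaf, against 0.0792 and 0.165 TPM in leaf.

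**Figure D1:**
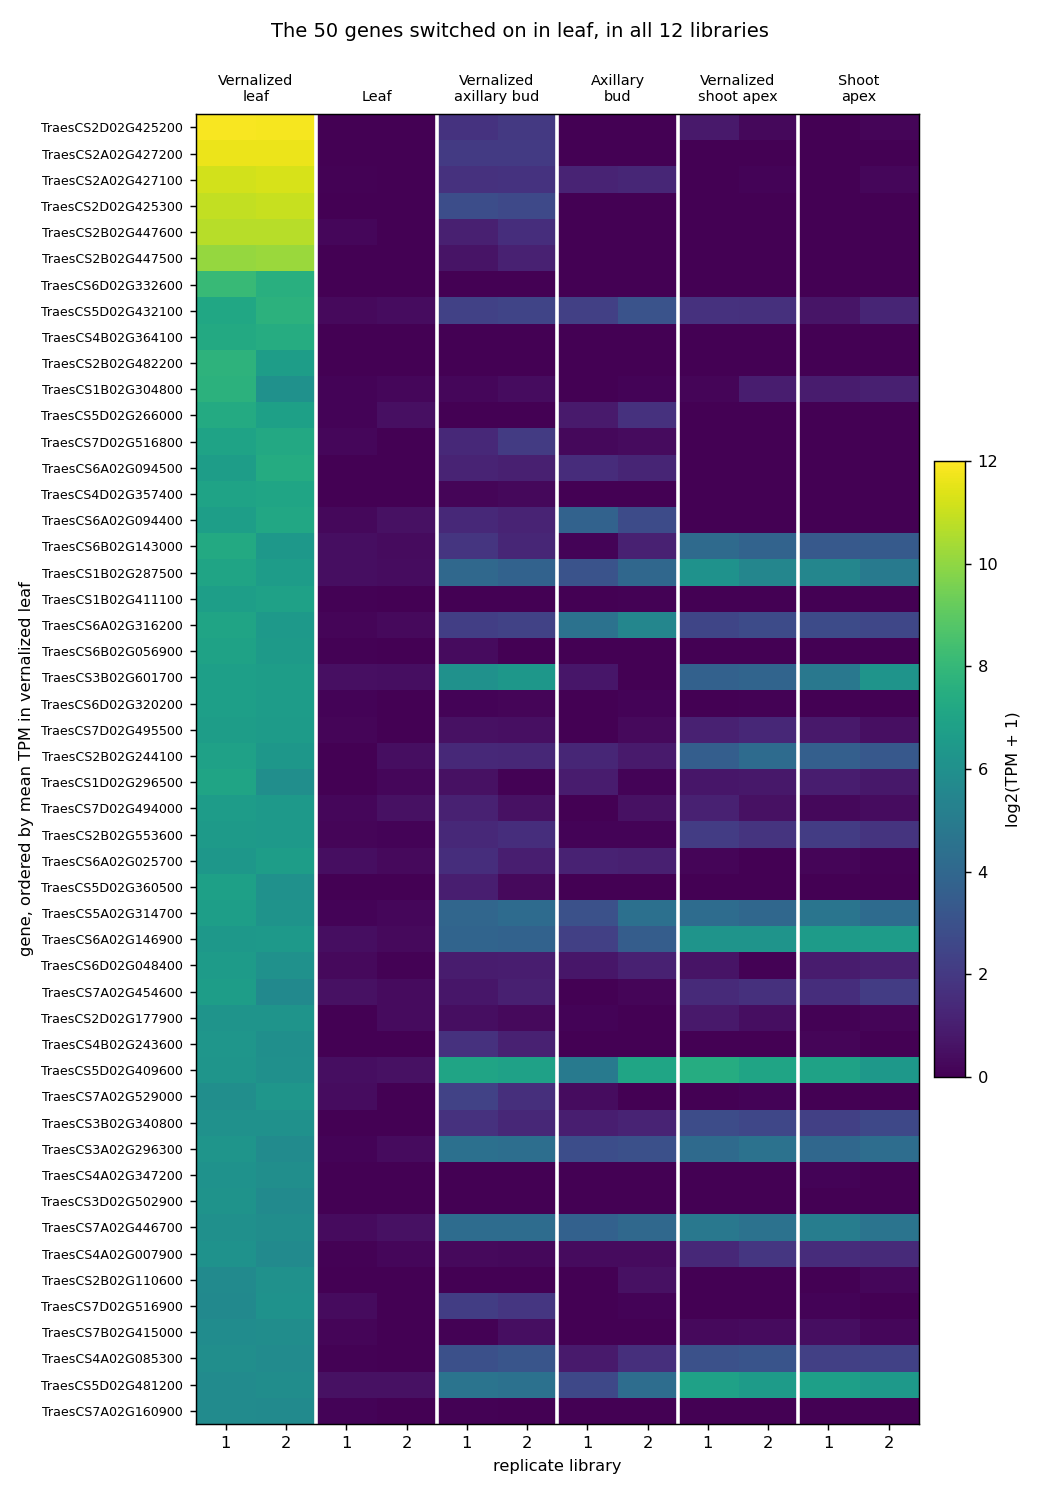
Level of each of the 50 genes (rows, ordered by mean in vernalized leaf) in the 12 libraries (columns, replicates 1 and 2 of each group) as log2(TPM + 1). The vernalized leaf columns are bright for every gene because of the rule, the leaf columns are dark, and 12 genes stay below 0.5 TPM in all 8 axillary bud and shoot apex libraries while 5 exceed 50 TPM in at least 1 of them.

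The libraries themselves were uneven in composition. The factors of a median-of-ratios scaling over 21695 genes were 0.623 and 0.530 in vernalized leaf and 1.54 and 1.75 in leaf, so that the typical gene had lower TPM in vernalized leaf than in leaf. When the rule was applied to rescaled TPM, 167 identifiers met it, and all 50 members were among them. The number of reads behind a TPM value is unknown, hence precision is judged from the 2 replicates only.

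Members lay on every chromosome group. By sub-genome, 16 were on A, 16 on B and 18 on D, which are 32.0%, 32.0% and 36.0% of the members, close to the 32.8%, 33.0% and 31.7% of all identifiers. Chromosome group 2 held 11 members, group 6 held 10, group 7 held 9, groups 4 and 5 held 6 each, and groups 1 and 3 held 4 each. In 5 places 2 members had consecutive identifier numbers, which covers 10 members. These were on chromosomes 2A, 2B, 2D, 6A and 7D.

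The 6 highest members were exactly the neighbouring pairs of 2A, 2B and 2D, a pair in each sub-genome. On 2D, TraesCS2D02G425200 had 3783 and 3695 TPM in vernalized leaf and was listed at 0 in both leaf libraries. This was the highest level of any member, and the 21st highest of all identifiers in vernalized leaf. Its neighbour TraesCS2D02G425300 had 1888 and 2052 TPM in vernalized leaf and was also listed at 0 in both leaf libraries.

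On 2A, TraesCS2A02G427200 had 3244 and 3224 TPM in vernalized leaf and was at 0 in both leaf libraries. TraesCS2A02G427100 had 2294 and 2453 TPM in vernalized leaf, against 0.0655 and 0 TPM in leaf. The pair on 2B was the lowest of the 3. TraesCS2B02G447600 had 1689 and 1657 TPM in vernalized leaf, against 0.148 and 0 TPM in leaf, and TraesCS2B02G447500 had 1101 and 1175 TPM in vernalized leaf and was listed at 0 in leaf. Replicates of these 6 genes were closer than those of most members, and no leaf value came near a vernalized leaf value.

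Summed per sub-genome, the 2D pair reached 5670 and 5746 TPM in vernalized leaf, the 2A pair 5537 and 5677 TPM, and the 2B pair 2790 and 2832 TPM. The D and A pairs thus held 40.5% and 39.6% of the 6 genes in replicate 1 and 40.3% and 39.8% in replicate 2, while the B pair held 19.9% in both. The gap between B and the others was far wider than that between replicates, whereas A and D differed by little. The order within a pair was not shared: the gene with the higher number had the higher level on 2A and 2B, and the gene with the lower number had it on 2D.

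The pairs occupied the same relative place on the 3 chromosomes. Counted in identifier numbers from the local copy of TaSPL3 to that of TaSPL4, both SPL genes of the study's list, they stood at 14.9% and 15.0% of the way on 2A, 15.1% and 15.3% on 2B, and 15.7% and 15.8% on 2D. Identifier numbers give order and not distance, and the part of the homoeologue table used here does not cover chromosome group 2, so whether the pairs are homoeologues was not tested.

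The genes on either side did not share the change. The nearest gene before the 2A pair, TraesCS2A02G427000, had 0.715 and 0.973 TPM in vernalized leaf, against 3.37 and 4.71 TPM in leaf. Its counterpart in order on 2B, TraesCS2B02G447400, had 1.42 and 1.34 TPM in vernalized leaf, against 6.51 and 6.69 TPM in leaf. On 2D, TraesCS2D02G425100 had 1.41 and 1.52 TPM in vernalized leaf, against 5.34 and 5.40 TPM in leaf. All 3 were thus lower in both vernalized leaf libraries than in either leaf library, and not higher like the members beside them. The typical gene also had lower TPM in vernalized leaf, with scaling factors of 0.623 and 0.530 against 1.54 and 1.75 in leaf. Whether these 3 fell beyond that shift was not tested. The identifiers directly after the pairs did not exceed 0.121 TPM in vernalized leaf and were listed at 0 in leaf.

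A further gene 4 or 5 identifier steps after each pair was higher in vernalized leaf but chiefly an apex gene. TraesCS2D02G425700 had 63.1 and 45.2 TPM in vernalized leaf, against 1.83 and 3.25 TPM in leaf, and 173 and 143 TPM in vernalized shoot apex, against 204 and 213 TPM in shoot apex. It was over the leaf limit of the rule in both leaf libraries. TraesCS2A02G427700 had 49.1 and 38.3 TPM in vernalized leaf, against 0.833 and 1.22 TPM in leaf, and TraesCS2B02G448100 had 31.1 and 27.2 TPM, against 0.705 and 0.996 TPM. Among these identifiers the very high levels in vernalized leaf were thus limited to the pairs, but higher TPM in vernalized leaf than in leaf was not.

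**Figure D2:**
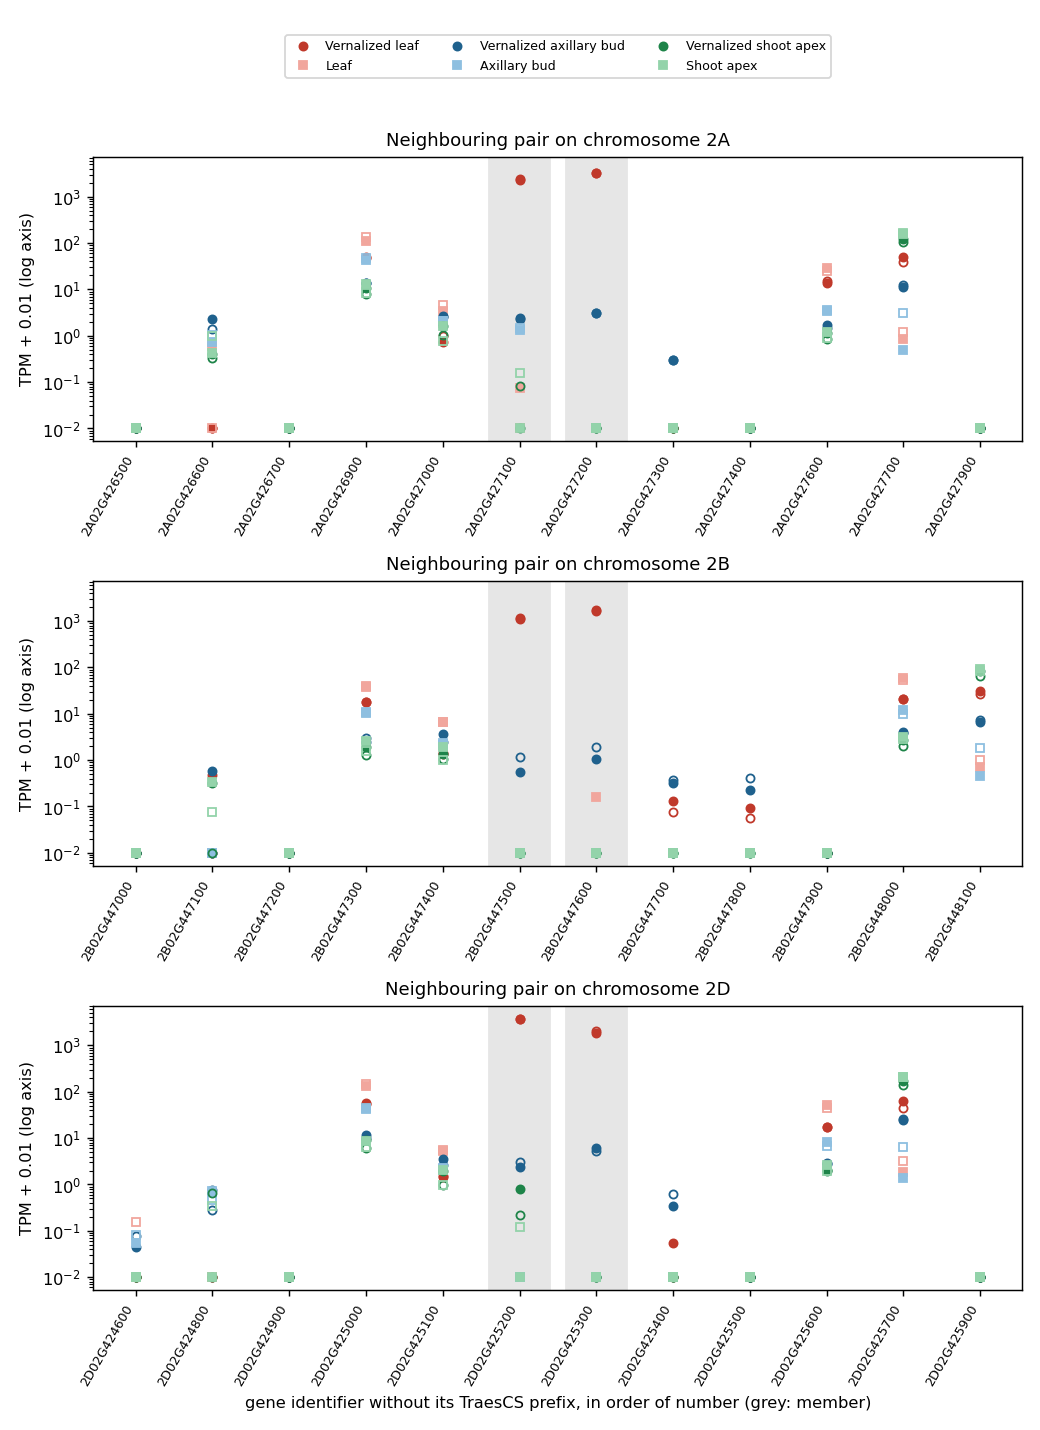
TPM + 0.01 on a log axis for the neighbouring pairs on 2A, 2B and 2D (grey) and the identifiers around them in order of number, with filled symbols for replicate 1, open symbols for replicate 2 and a colour per group. The grey genes reach 1101 to 3783 TPM in vernalized leaf, while the genes directly beside them are at 1.52 TPM or less there.

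Outside leaf, the 6 genes were nearly silent, with small values mainly in vernalized axillary bud. Their summed level was 15.6 and 16.8 TPM in vernalized axillary bud, against 1.31 and 1.47 TPM in axillary bud, and 0.771 and 0.285 TPM in vernalized shoot apex, against 0 and 0.259 TPM in shoot apex. TraesCS2D02G425300 was the highest of them, with 6.24 and 5.36 TPM in vernalized axillary bud and 0 in both axillary bud libraries and in all 4 shoot apex libraries. TraesCS2A02G427200 likewise had 3.06 and 3.05 TPM in vernalized axillary bud and 0 in the other 6 libraries of bud and apex. Both axillary bud libraries had TraesCS2A02G427100, at 1.31 and 1.47 TPM, against 2.29 and 2.37 TPM in vernalized axillary bud, and the other 5 genes were listed at 0 there.

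**Figure D3:**
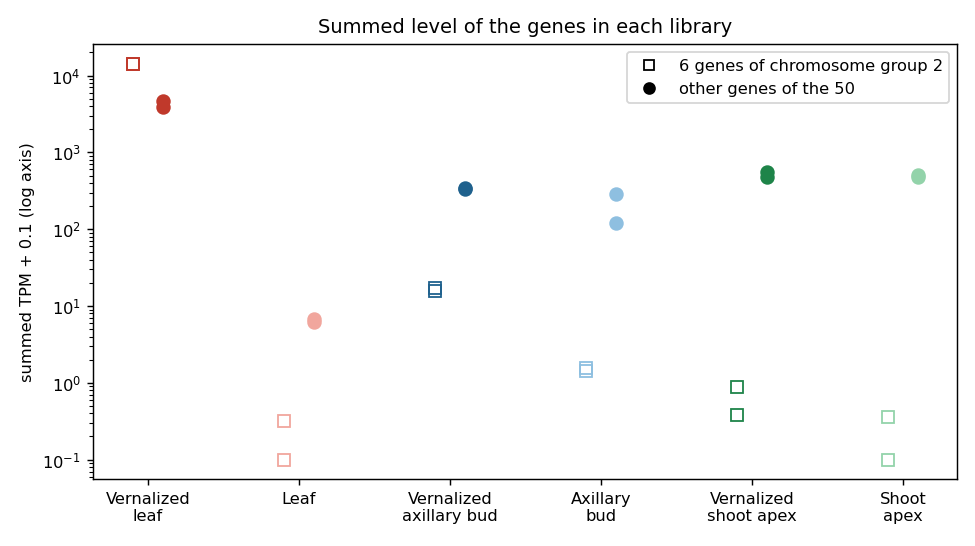
Summed TPM + 0.1 on a log axis of the 6 genes of chromosome group 2 (open squares) and of the other 44 genes (filled circles), with a symbol per library. Vernalized leaf stands above leaf by the rule, the squares of vernalized axillary bud (15.6 and 16.8 TPM) lie above those of axillary bud (1.31 and 1.47 TPM), and the circles of the 4 shoot apex libraries overlap between the vernalized and non-vernalized state.

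On chromosome 6A, the members TraesCS6A02G094400 and TraesCS6A02G094500 stood inside a longer block of 6 consecutive identifiers that were all high in vernalized leaf. TraesCS6A02G094400 had 106 and 145 TPM in vernalized leaf, against 0.207 and 0.431 TPM in leaf, and TraesCS6A02G094500 had 103 and 165 TPM in vernalized leaf and 0 in leaf. The highest of the block, TraesCS6A02G094300, had 813 and 1122 TPM in vernalized leaf, against 0.545 and 0 TPM in leaf, and missed the rule by its value in leaf replicate 1. TraesCS6A02G094100 had 166 and 302 TPM, against 0.123 and 0.514 TPM, and missed it by leaf replicate 2.

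The other block genes were already expressed in leaf. TraesCS6A02G094600 had 603 and 862 TPM in vernalized leaf, against 19.6 and 16.8 TPM in leaf, and TraesCS6A02G094200 had 227 and 354 TPM, against 21.4 and 17.9 TPM. In axillary bud the block showed the opposite order. All 6 genes had lower TPM in both vernalized axillary bud libraries than in either axillary bud library, where 20.6% of the 53944 genes tested below were lower and 60.6% higher without overlap, for example 3.96 and 3.41 TPM against 24.8 and 10.5 TPM for TraesCS6A02G094300. Of the 2 members, TraesCS6A02G094400 had 1.58 and 1.31 TPM in vernalized axillary bud, against 12.8 and 5.64 TPM in axillary bud, and both were listed at 0 in all 4 shoot apex libraries.

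On chromosome group 7, TraesCS7D02G516800 had 122 and 149.9 TPM in vernalized leaf, against 0.145 and 0 TPM in leaf. TraesCS7D02G516900 had 50.9 and 67.8 TPM, against 0.264 and 0 TPM, and TraesCS7A02G529000 had 59.0 and 77.6 TPM, against 0.308 and 0 TPM. The 7D genes stood 344 and 345 identifier steps past TaSPL18D2 and the 7A gene 340 steps past TaSPL18A. Identifier numbers give order and not distance, and whether these genes are homoeologues was not tested. The identifiers before the 7D pair stayed just under the upper limit. TraesCS7D02G516700 had 45.1 and 49.5 TPM in vernalized leaf and 0 in leaf, and TraesCS7D02G516600 had 42.2 and 45.2 TPM, against 1.92 and 0.570 TPM.

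These 3 genes had a low level in vernalized axillary bud and lower levels in the other libraries of bud and apex. TraesCS7D02G516900 had 3.48 and 2.67 TPM in vernalized axillary bud, against 0 and 0.0676 TPM in axillary bud. TraesCS7D02G516800 had 1.62 and 3.30 TPM, against 0.181 and 0.297 TPM, and TraesCS7A02G529000 had 4.10 and 2.06 TPM, against 0.337 and 0 TPM. No library of shoot apex in either state exceeded 0.0958 TPM for these 3 genes.

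**Figure D4:**
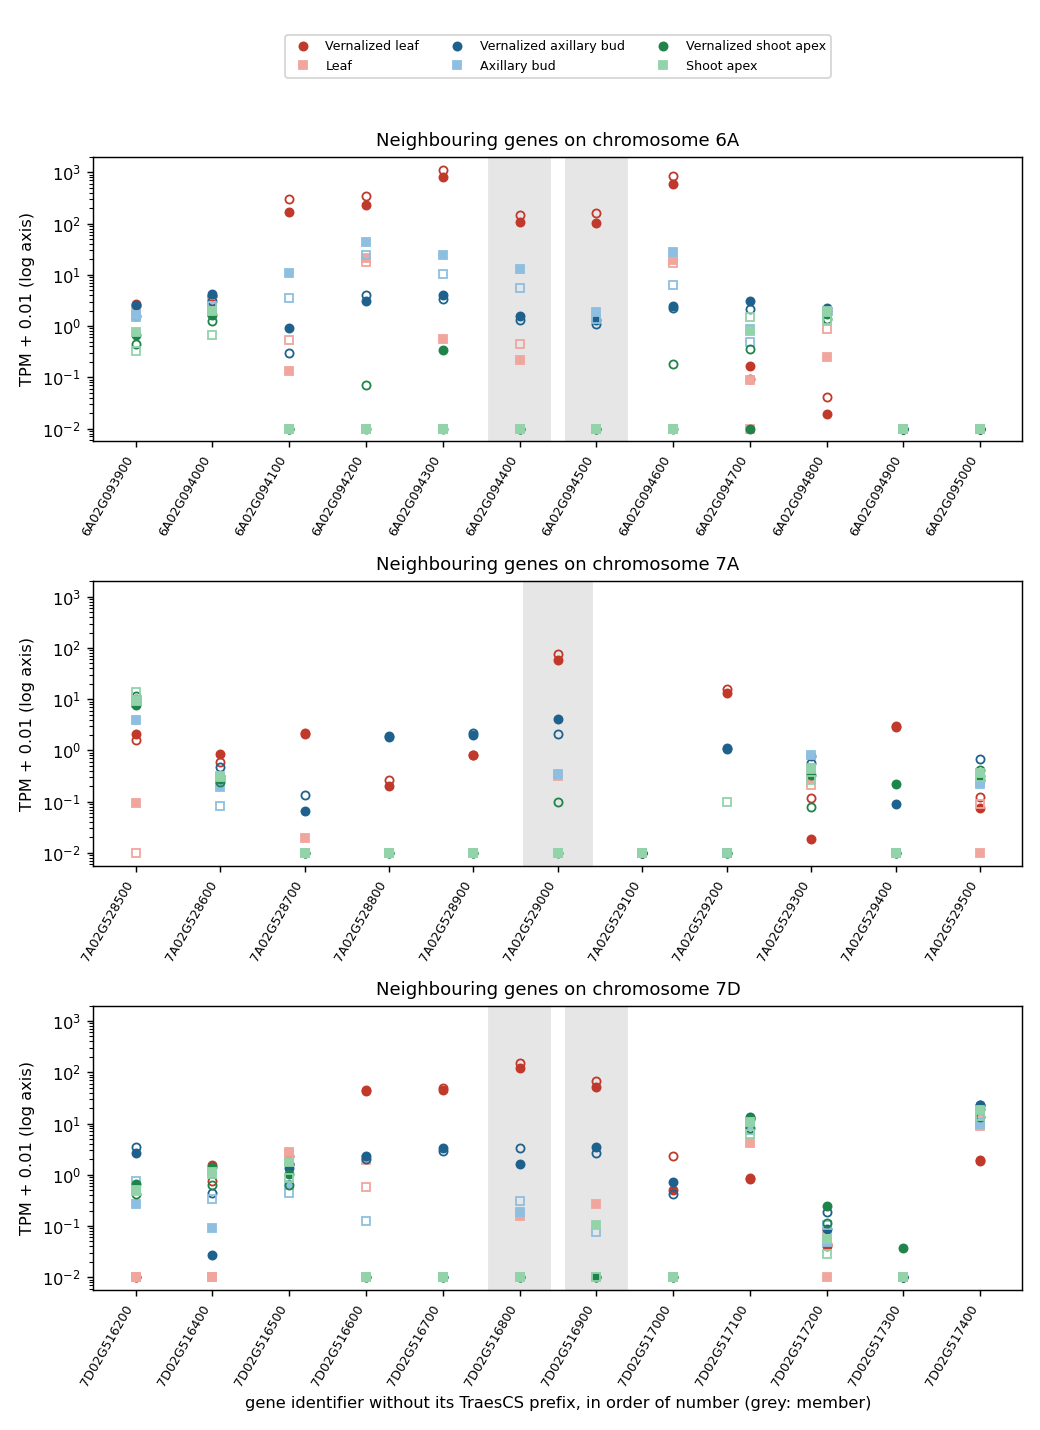
TPM + 0.01 on a log axis around the members (grey) of chromosomes 6A, 7A and 7D in order of identifier number, with filled symbols for replicate 1, open symbols for replicate 2 and a colour per group. On 6A the block of 6 genes is high in vernalized leaf and lower in vernalized axillary bud than in axillary bud, while on 7D the vernalized axillary bud values of the grey genes lie above those of axillary bud.

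Homoeologues could be compared for 2 members, both on chromosome group 4, because the part of the study's homoeologue table used here holds 1998 triads whose A copy is on 4A. TraesCS4B02G243600 had 79.0 and 62.1 TPM in vernalized leaf and 0 in leaf. Its D copy TraesCS4D02G243200 had 79.3 and 49.1 TPM and 0 in leaf, just outside the rule, whereas its A copy TraesCS4A02G066300 had 7.62 and 6.96 TPM, against 0 and 0.372 TPM in leaf. The B and D copies overlapped, and both libraries of the A copy lay below them.

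In the triad of TraesCS4A02G085300 all 3 copies had higher TPM in both vernalized leaf libraries than in leaf, at different levels. The A copy had 59.8 and 54.8 TPM in vernalized leaf, against 0.0559 and 0 TPM in leaf. The D copy TraesCS4D02G219100 had 28.2 and 26.4 TPM, against 0.0785 and 0.163 TPM, and the B copy TraesCS4B02G218900 had 21.2 and 19.5 TPM and 0 in leaf. The copies did not overlap, and only A passed the upper limit. In bud the order was another. The A copy had 6.64 and 7.99 TPM in vernalized axillary bud, against 0.839 and 2.03 TPM in axillary bud. The B copy had 2.45 and 2.67 TPM, against 0.912 and 1.69 TPM, and the D copy was lowest, with 1.63 and 1.09 TPM, against 0.343 and 0.703 TPM.

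The members differed widely in their levels outside leaf. Over the 8 axillary bud and shoot apex libraries, 12 members stayed below 0.5 TPM throughout, 22 had a maximum from 0.5 to 5 TPM, 11 from 5 to 50 TPM and 5 above 50 TPM. The 12 are 24.0% of the members. Among the other 1800 identifiers above 50 TPM in both vernalized leaf libraries, 24 or 1.33% stayed below 0.5 TPM in all 8, which is a description since these identifiers were present in leaf. The median of the mean levels of the members was 1.46 TPM in vernalized axillary bud and 0.194 TPM in axillary bud, and 0.160 TPM in vernalized shoot apex and 0.0752 TPM in shoot apex. For the other 1800 identifiers it was 9.93 TPM in vernalized axillary bud and 15.1 TPM in axillary bud, and 6.05 TPM in vernalized shoot apex and 6.41 TPM in shoot apex.

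More members were detectable in vernalized axillary bud than in the other 3 groups of bud and apex. Above 1 TPM in both libraries were 27 members in vernalized axillary bud and 14 in axillary bud, and 18 in vernalized shoot apex and 16 in shoot apex. Listed at 0 in both libraries were 7 members in vernalized axillary bud and 16 in axillary bud, and 20 in vernalized shoot apex and 18 in shoot apex. Over all identifiers, 50836 and 50485 exceeded 1 TPM in the vernalized axillary bud libraries, against 44920 and 44523 in the axillary bud libraries, and 34655 and 34870 were listed at 0, against 40730 and 40763. The vernalized axillary bud libraries had the most trimmed reads of the 12 in the study's library table, and the part of depth in the member counts was not tested.

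Of the 12 members below 0.5 TPM throughout bud and apex, 4 were listed at 0 in all 10 libraries other than vernalized leaf. TraesCS6D02G332600 had 273 and 190.3 TPM in vernalized leaf, TraesCS4B02G364100 had 157 and 171 TPM, TraesCS2B02G482200 had 215 and 101 TPM and TraesCS3D02G502900 had 71.5 and 52.9 TPM. These were listed above 0 in vernalized leaf alone, with wide replicate spread for TraesCS2B02G482200. TraesCS4D02G357400 had 125 and 131 TPM in vernalized leaf and 0 in leaf, and at most 0.185 TPM in bud and apex. TraesCS1B02G411100 had 105 and 114 TPM in vernalized leaf, against 0.0614 and 0.0213 TPM in leaf.

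At the other end, a few members were as abundant in bud or apex as in vernalized leaf. In 47 members the lower vernalized leaf library was above every other library, and the 3 exceptions were TraesCS5D02G409600, TraesCS5D02G481200 and TraesCS6A02G146900. TraesCS5D02G409600 had 76.7 and 63.3 TPM in vernalized leaf, against 0.369 and 0.467 TPM in leaf. Its levels were 126 and 115 TPM in vernalized axillary bud, against 29.4 and 132 TPM in axillary bud, and 171 and 126 TPM in vernalized shoot apex, against 120.3 and 84.6 TPM in shoot apex. It was thus below 0.5 TPM in the leaf libraries only.

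TraesCS5D02G481200 had 54.2 and 57.8 TPM in vernalized leaf, against 0.464 and 0.446 TPM in leaf, and 116 and 94.3 TPM in vernalized shoot apex, against 107 and 85.8 TPM in shoot apex. TraesCS6A02G146900 had 84.3 and 86.4 TPM in vernalized leaf, against 0.357 and 0.247 TPM in leaf, and 71.9 and 73.2 TPM in vernalized shoot apex, against 96.4 and 98.6 TPM in shoot apex. Both were lower in bud than in apex. TraesCS1B02G287500 had 129 and 98.9 TPM in vernalized leaf, against 0.353 and 0.339 TPM in leaf, and 68.2 and 44.0 TPM in vernalized shoot apex, against 44.3 and 29.0 TPM in shoot apex.

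Several of these members were uneven between the axillary bud replicates. The summed level of all 50 members was 359 and 353 TPM in vernalized axillary bud, against 121 and 292 TPM in axillary bud, and 561 and 474 TPM in vernalized shoot apex, against 515 and 477 TPM in shoot apex. TraesCS5D02G481200 had 23.7 and 21.3 TPM in vernalized axillary bud, against 4.98 and 18.8 TPM in axillary bud. TraesCS6A02G146900 had 13.7 and 12.8 TPM, against 3.90 and 10.6 TPM. Axillary bud replicate 2 thus lay nearer to the vernalized libraries than replicate 1 did for these genes.

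TraesCS3B02G601700 was the member with the most marked response in bud. It had 109 and 99.9 TPM in vernalized leaf, against 0.417 and 0.372 TPM in leaf, and 67.2 and 80.0 TPM in vernalized axillary bud, against 0.671 and 0.0305 TPM in axillary bud. In shoot apex it was present in both states, with 12.2 and 13.6 TPM in vernalized shoot apex, against 27.3 and 73.6 TPM in shoot apex. The bud groups were separated by a wide gap, whereas the shoot apex replicates differed greatly between themselves.

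The responses of bud and apex were independent of the rule and were tested. A limma model was fitted to log2(TPM + 1) of the 8 axillary bud and shoot apex libraries for the 53944 genes whose mean exceeded 1 TPM in any of the 4 groups. A call needed an adjusted p-value below 0.05 together with a change of more than 2-fold. Of the 50 members 31 were tested and 19 were too low. Fold changes below are vernalized minus non-vernalized means on that log2 scale, which understates the change of low genes. In axillary bud, 12 members were called higher, where 12.5% of all tested genes were called, and 3 were called lower, where 3.84% were. The median log2 fold change was 0.92 for the 31 members and 0.33 for all tested genes. The 0.92 includes 8 members that passed the filter only through vernalized axillary bud, so it is a description.

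The count in bud depends on how members entered the test. A gene that passed the filter only through vernalized axillary bud had to be higher there, which was the case for 8 members, all called higher. Likewise, 1 of the 3 members called lower passed only through axillary bud. Among the other 23 tested members 4 were called higher, and among the 12 that passed through all 4 groups 2 were higher and 1 lower. Shares over all tested genes, 12.5% higher and 3.84% lower, were not split by how genes passed. Scaling the libraries by the median of ratios brought the median of all genes to 0.05 and the share of calls that were higher, over all genes, to 52.9%, against 76.5% on the deposited scale. It left 11 of 33 tested members higher and 3 lower, against 3654 and 3252 of all 52757 tested genes. Where a mean above 5 TPM was required, 16 members were tested and 4 were called higher, as were 3968 of all 31066 genes tested there. Of these 4, TraesCS2D02G425300 passed that filter through vernalized axillary bud alone. TraesCS6A02G094400, called lower there, passed it through axillary bud alone. Their directions were thus again built into the filter.

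The called increases were led by TraesCS3B02G601700, with a log2 fold change of 5.82 (standard error, SE, 0.42, adjusted p = 4.33e-05, limma). Next were members of the neighbouring pairs. The 8 members that entered the test through vernalized axillary bud alone were 7 genes of the group 2 pairs and the group 7 places, and TraesCS4B02G243600. The direction of these 8 was built into the filter, so their fold changes are a description. TraesCS2D02G425300 had a log2 fold change of 2.76 (SE 0.14), TraesCS2A02G427200 of 2.02 (SE 0.12), TraesCS7D02G516900 of 1.97 (SE 0.15) and TraesCS2D02G425200 of 1.88 (SE 0.20). The last had 2.39 and 2.97 TPM in vernalized axillary bud and 0 in both axillary bud libraries. TraesCS7A02G529000, TraesCS7D02G516800 and TraesCS2B02G447600 were at 1.77, 1.44 and 1.30. TraesCS2A02G427100 was not called, with a log2 fold change of 0.48 (SE 0.15), and TraesCS2B02G447500 was too low to be tested, with 0.554 and 1.15 TPM in vernalized axillary bud and 0 in axillary bud.

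The remaining 4 increases included both triad members. TraesCS4A02G085300 had a log2 fold change of 1.81 (SE 0.28, adjusted p = 0.00171) and TraesCS4B02G243600 of 1.41 (SE 0.19), with 2.27 and 1.18 TPM in vernalized axillary bud and 0 in axillary bud. TraesCS3A02G296300 had 20.3 and 19.1 TPM in vernalized axillary bud, against 6.22 and 6.73 TPM in axillary bud, a log2 fold change of 1.47 (SE 0.22). It lost its call after median-of-ratios scaling, at 1.13 and an adjusted p = 0.0574 in limma. TraesCS2B02G553600 had 1.61 and 1.98 TPM, against 0.0860 and 0.0939 TPM, a log2 fold change of 1.36 (SE 0.22).

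Members that gained in leaf could lose in bud. TraesCS6A02G316200 had 128 and 84.9 TPM in vernalized leaf, against 0.115 and 0.240 TPM in leaf, but 3.66 and 4.15 TPM in vernalized axillary bud, against 21.7 and 44.9 TPM in axillary bud. Its log2 fold change in bud was -2.72 (SE 0.32, adjusted p = 0.000465, limma). TraesCS6A02G094400 of the 6A block fell by 1.97 on the log2 scale (SE 0.30, adjusted p = 0.00185). TraesCS5D02G266000 had 163 and 112 TPM in vernalized leaf, against 0.0931 and 0.387 TPM in leaf, and 0 in both vernalized axillary bud libraries, against 0.815 and 2.31 TPM in axillary bud. It entered the test through axillary bud alone, so its lower level in vernalized axillary bud was built into the filter. Its log2 fold change was -1.29 (SE 0.24), and the call was lost without vernalized axillary bud replicate 2 (adjusted p = 0.0501).

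In shoot apex, 0 members were called higher and 0 lower by limma, where 1.01% and 2.24% of all tested genes were called. At an unadjusted p-value under 0.05 there were 4 higher and 1 lower, where 3.61% and 8.05% of all tested genes passed. Of the 4, TraesCS7D02G495500 entered the test through vernalized shoot apex alone. Another was TraesCS5D02G432100, with 2.26 and 2.17 TPM in vernalized shoot apex, against 0.625 and 1.38 TPM in shoot apex. In bud it had 3.93 and 4.48 TPM in vernalized axillary bud, against 3.85 and 7.28 TPM in axillary bud. It was the member ranked 8 in vernalized leaf, with 142 and 207 TPM, against 0.246 and 0.320 TPM in leaf. The median log2 fold change was 0 for the 31 members and -0.07 for all tested genes. Some of the 31 passed the filter through bud and were listed at 0 in all 4 shoot apex libraries. These could not be called in shoot apex, so the 0 calls and the median are a description. With each tissue fitted alone, 18 members were tested in shoot apex. Of these, 0 were called higher and 0 lower, against 246 and 570 of all 47676 genes tested there. TraesCS3B02G601700 came nearest to a call, with a log2 fold change of -1.73 (SE 0.42, adjusted p = 0.0641, limma). It was called lower with a replicate block, and with all 12 libraries in the fit. Without shoot apex replicate 1 the value was -2.43 with an adjusted p = 0.00509, and without replicate 2 it was -1.03 with an adjusted p = 0.136. The value thus rests on the library of shoot apex with 73.6 TPM. TraesCS4A02G085300 had 6.93 and 7.58 TPM in vernalized shoot apex, against 3.89 and 3.98 TPM in shoot apex, which did not overlap, and a log2 fold change of 0.74 (SE 0.28, adjusted p = 0.279).

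The difference between the bud and apex responses was tested as an interaction in the same model. In 11 members the response was more positive in axillary bud, where 13.2% of all tested genes were called, and in 3 it was more positive in shoot apex, where 3.55% were. The shoot apex response of these 3 was 0 for TraesCS5D02G266000 and TraesCS6A02G094400 and -0.00385 for TraesCS6A02G316200. Their difference is thus in effect the fall in axillary bud. Members listed at 0 throughout shoot apex likewise have a difference equal to their axillary bud response. Of the 11, 8 passed the filter through vernalized axillary bud only, and of the 3, 1 passed through axillary bud only, so that the direction of the axillary bud response in these 9 was built into the filter. The 14 were the members called in axillary bud except TraesCS4A02G085300, whose difference was 1.07 (SE 0.39, adjusted p = 0.0978, limma). That difference was called with a replicate block. The widest difference was that of TraesCS3B02G601700, at 7.55 (SE 0.60), and the most negative that of TraesCS6A02G316200, at -2.72 (SE 0.46, adjusted p = 0.00355). Without vernalized axillary bud replicate 1, or without replicate 2, fewer members were called more positive in shoot apex. Where a mean above 5 TPM was required, 3 in place of 11 were called more positive in axillary bud, against 3482 of all 31066 genes. Of these 3, TraesCS2D02G425300 passed that filter through vernalized axillary bud alone.

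**Figure D5:**
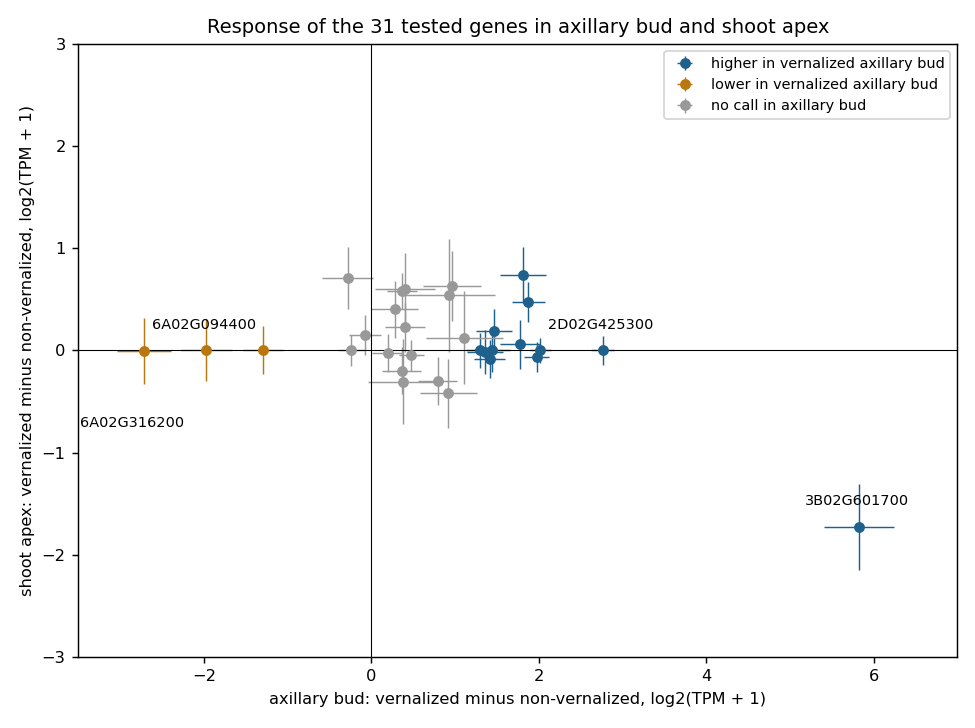
Vernalized minus non-vernalized mean of log2(TPM + 1) in axillary bud (horizontal) and shoot apex (vertical) for the 31 tested genes, with standard errors of the limma model as bars and colours for the call in axillary bud. Most genes lie near 0 in shoot apex, where some were listed at 0 in every library. In axillary bud 12 were called higher and 3 lower, and TraesCS3B02G601700 stands apart at 5.82 and -1.73.

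The limits of the rule cut through a continuous range. Just inside the lower limit were TraesCS5D02G409600, TraesCS5D02G481200 and TraesCS7D02G494000, the last with 98.0 and 89.0 TPM in vernalized leaf, against 0.144 and 0.448 TPM in leaf. Just outside it were TraesCS5D02G568500, with 60.7 and 59.6 TPM against 0.405 and 0.506 TPM, TraesCS6A02G094100, and TraesCS2B02G196700, with 69.9 and 57.6 TPM against 0.518 and 0.539 TPM. Just inside the upper limit were TraesCS7D02G516900 and another pair of genes. TraesCS7A02G454600 had 103 and 50.1 TPM in vernalized leaf, against 0.437 and 0.273 TPM in leaf, and TraesCS4A02G007900 had 68.4 and 52.1 TPM, against 0.0360 and 0.15 TPM. The nearest outside were TraesCS4D02G189000, with 62.2 and 49.3 TPM in vernalized leaf, TraesCS4D02G243200, and TraesCS6A02G047200, with 57.7 and 48.0 TPM.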

How the data were processed

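RNA-seq libraries of 6 groups were analysed, with 2 replicates each. The authors used fastp 0.21.0 for quality control, hisat2 for alignment to the IWGSC RefSeq v1.0 genome, SAMtools 1.3.1 for sorting and TPMCalculator for the TPM per gene that they deposited for each library. Their featureCounts and DESeq2 output was not used here. TPM keep no depth, so genes without signal are given as listed at 0. No 2 libraries were identical (0 pairs).

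Members were found by the rule on leaf, so limma 3.58.1 (R 4.3.3) was fitted without the leaf libraries, to log2(TPM + 1) of the 8 axillary bud and shoot apex libraries, with 1 coefficient per group, a variance trend, 4 residual degrees of freedom and a median of 4.72 added by moderation. Tests were two-sided with Benjamini-Hochberg adjustment over 53944 genes. The study's own thresholds (p under 0.01 and fold change above 2) were an alternative. Other alternatives were a pseudocount of 0.1, no filter, a mean above 5 TPM, all 12 libraries, each tissue alone, median-of-ratios scaling, a replicate block, no variance trend, other limits of the rule and leaving out each library. Python 3.11.15, numpy 2.4.6, pandas 2.3.3 and matplotlib 3.10.9 were also used.

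The genes named by rule were the 10 members highest in vernalized leaf, the 6 largest called changes in each direction in axillary bud, the 4 in each direction in shoot apex, the 4 largest differences of response in each direction, the 5 members highest in non-vernalized bud and apex, the 5 highest in vernalized leaf among those below 0.5 TPM elsewhere, triad members, the 3 identifiers nearest each side of a limit, and members with neighbouring numbers. The other called members, the flanking identifiers, TraesCS1B02G304800 and TraesCS3D02G502900 were named after their values were seen. The members, the lists and the tests were chosen with earlier results of these data known. Gene products were not analysed here, since the identifiers matched no entry of the reference table. The homoeologue table was used only in part, for chromosome group 4.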

Additional observations from a re-analysis of the deposited data

Results flagged for a closer look

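In 14 members the response to vernalization differed between axillary bud and shoot apex by the interaction term of the limma model. The direction of the axillary bud response was set by the filter on low values in 9 of them. These were TraesCS4B02G243600 and the named genes of chromosome groups 2 (the neighbouring pairs) and 7, which passed through vernalized axillary bud only, and TraesCS5D02G266000, which passed through axillary bud only. Over all tested genes, 13.2% were called more positive in axillary bud and 3.55% more positive in shoot apex. Values are the axillary bud response minus the shoot apex response on the log2(TPM + 1) scale. Among the neighbouring pairs of chromosome group 2 the difference was 2.02 for TraesCS2A02G427200, 1.30 for TraesCS2B02G447600, 1.40 for TraesCS2D02G425200 and 2.76 for TraesCS2D02G425300. On chromosome group 7 it was 1.71 for TraesCS7A02G529000, 1.44 for TraesCS7D02G516800 and 2.04 for TraesCS7D02G516900. Elsewhere it was 7.55 for TraesCS3B02G601700, 1.50 for TraesCS4B02G243600, 1.37 for TraesCS2B02G553600 and 1.28 for TraesCS3A02G296300. It was negative in 3 members, at -1.29 for TraesCS5D02G266000, -1.97 for TraesCS6A02G094400 and -2.72 for TraesCS6A02G316200. The shoot apex response of these 3 was 0, 0 and -0.00385, so the difference is in effect their fall in axillary bud. Genes listed at 0 throughout shoot apex likewise have a difference equal to their axillary bud response. The call of 9 of the 14 held under every alternative that tested the gene. Of these 9, only TraesCS3B02G601700 and TraesCS6A02G316200 had a direction that was not built into the filter. The stability of the others is a description. TraesCS2B02G553600, TraesCS3A02G296300, TraesCS5D02G266000, TraesCS6A02G094400 and TraesCS7A02G529000 lost it under at least 1. No library could be tested as an outlier within groups of 2.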

How the results depend on the processing

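The number of members depended on the limits and on the scale. In place of 50 there were 167 after median-of-ratios scaling, 21 below 0.1 TPM in leaf, 93 below 1 TPM in leaf, 174 above 20 TPM in vernalized leaf and 16 above 100 TPM in vernalized leaf. Leaving out a leaf or vernalized leaf library gave 50 to 81 members, with 69 without leaf replicate 1, 78 without leaf replicate 2, 50 without vernalized leaf replicate 1 and 81 without vernalized leaf replicate 2, and the 50 were among them each time.

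Requiring a mean above 5 TPM left 16 members to test. It gave 4 members called higher in axillary bud in place of 12, with 3968 of 31066 genes called over all. A more positive response there than in shoot apex was called in 3 in place of 11, with 3482 of 31066 genes. Members called lower in shoot apex numbered 1 in place of 0, TraesCS3B02G601700, with all 12 libraries in the fit and when calls used the unadjusted p-value of limma. Leaving out a library of bud or apex gave 12 to 17 members higher and 2 to 3 lower in axillary bud, 0 higher and 0 to 1 lower in shoot apex (1 without shoot apex replicate 1), 9 to 15 with a more positive response in axillary bud and 1 to 3 with a more positive response in shoot apex (1 without either vernalized axillary bud library). Where 1 library of a group was left, it was assumed to vary like the other groups. The 17 were reached without axillary bud replicate 2. No called direction reversed, and 13 of the 15 calls in axillary bud held under every alternative that tested the gene. The direction of 8 called higher and 1 called lower was built into the filter, so its stability is a description. With a mean above 5 TPM required, 6 of the 15 were tested and all 6 were called, while the others were too low to be tested there. The direction of TraesCS2D02G425300 and TraesCS6A02G094400 was built into that filter too. Over all genes, calls in axillary bud ranged from 3654 to 9048 higher and 1282 to 3252 lower, those in shoot apex from 246 to 661 higher and 570 to 1463 lower, and those of the difference from 3482 to 11296 and 1019 to 3264. Scaling brought the median of all genes from 0.38 to 0.01 for the difference.

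With a replicate block, 12 members were called higher and 3 lower in axillary bud as without it, and 1 lower in shoot apex in place of 0 (TraesCS3B02G601700). A more positive response in axillary bud was called in 14 in place of 11, with TraesCS4A02G085300 among those gained. Over all 53944 tested genes, the block also raised the calls more positive in axillary bud from 7126 to 9031. It raised those lower in shoot apex from 1210 to 1444. The labels do not say that a replicate number marks a shared origin. The correlation of the replicate differences over 53944 genes was 0.00634 between the bud groups, 0.74 between the apex groups and 0.116 to 0.214 otherwise.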
